A study of Homo sapiens with 72 samples.

Results

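Transcripts of 36 genes for integrins, laminins, collagens and other matrix proteins were followed in 3 lines of cervicovaginal epithelial cells exposed to *Gardnerella vaginalis* (GV), with or without a polyamine given first. The members were chosen by a list of gene symbols, of the 62266 genes in the table. No threshold on a measured value was used, but earlier results of these data were known when the list was made. They comprise 9 provisional matrix and matricellular proteins, 6 laminin chains, 9 collagen chains, 6 integrin alpha subunits and 6 integrin beta subunits. The lines came from the ectocervix (Ecto), the endocervix (Endo) and the vagina (VK2) and were all immortalized with the viral oncogenes E6 and E7, so that each tissue stands on a single line and tissue cannot be told apart from line. In every line, cells were left non-treated (NT) or pretreated for 4 h with 4 mM putrescine (PUT), 400 µM spermidine (SPD) or 400 µM spermine (SPM), and were then exposed to live GV at 10000000 colony-forming units per well for 24 h (+GV) or not (+noGV). Each of the 8 groups per line held 3 libraries. A low-count filter kept 33 members in Ecto and 34 in Endo cells, and 35 in VK2 cells. VTN, which encodes vitronectin, failed it in each line, COL5A1 failed it in Ecto and Endo cells, and SPARC failed it in Ecto cells.

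Epithelial cells rest on a basement membrane, a sheet of laminins and type IV collagen that is joined to the cell by integrins. Integrins are paired receptors of an alpha and a beta subunit, and the pair decides which matrix protein is bound. In the basal layer of stratified epithelium, the hemidesmosome couples the keratin cytoskeleton to this sheet through integrin alpha 6 beta 4 and the transmembrane collagen COL17A1, while integrins that contain ITGB1 carry focal adhesions. Fibronectin, tenascin-C and thrombospondins belong to the provisional matrix that epithelia lay down during repair. Putrescine, spermidine and spermine are polyamines that differ by their number of amino groups, with spermidine carrying one aminopropyl arm more than putrescine and spermine one more than spermidine.

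The 72 libraries held 20152143 to 42767996 counts assigned to genes (median 31872238.5). Replicates of a group always differed by more than sampling noise, with a chi-square of 2.27 to 42.4 per degree of freedom. The library Ecto SPD+noGV replicate 3 lay farthest from its group mean, at a root mean square of 0.38 in log2 CPM, counts scaled to the library size, against at most 0.345 in the other libraries. Counts of members for the comparisons that include its group are given with and without it. The other Ecto comparisons share 1 estimate of the spread with it and were not refitted without it. The keratins and junction genes that mark epithelium were expressed in every line, and all 10 had a median of at least 1 CPM. Their summed level was 8620.3 to 12268 CPM in the 12 Ecto libraries without GV and 5953 to 7320.0 CPM in the 12 with GV. In Endo cells it was 18052 to 22847 and 11528 to 13114 CPM, and in VK2 cells 28483 to 35564 and 22094 to 29602 CPM. Their part in the results below was not tested. Of 8 fibroblast markers, COL1A2, COL3A1, LUM, PDGFRA and PDGFRB stayed under a median of 1 CPM in all lines. The summed fibroblast markers came to 24.6 to 28.7 CPM in Ecto, 1.24 to 1.98 CPM in Endo and 24.6 to 33.1 CPM in VK2 cells with GV, most of it THY1 and FAP. The 6 endothelial markers summed to at most 17.6 CPM in any library. Of the 6 leukocyte markers, PTPRC, CD3E, ITGAM and CD79A were under a median of 1 CPM, and the summed level of up to 129.6 CPM was mostly CD68, a lysosomal protein that other cells also express.

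The start sites of COL4A1 and COL4A2, which encode the chains of the common type IV collagen, face away from each other on chromosome 13, with 126 bases between the RefSeq starts used here. The gene model behind the counts (GENCODE) starts COL4A2 further upstream, at 110305812, within COL4A1, which ends at 110307157. That stretch is shown because both genes are read from it, on opposite strands. RefSeq sequence (GRCh38.p14) is printed for chr13:110307158-110307283 on the plus strand, with a CCAAT box (bases 22 to 26) and a GC box (GGGCGG, bases 62 to 67) in capitals. The 250 bases before the start of FN1, the member with the highest mean CPM in untreated cells of each line, are shown as well, for chr2:215436069-215436318 on the minus strand, again from the RefSeq start, which lies a few bases inside the end of the GENCODE model. Their capitals mark a cyclic AMP response element (CRE, TGACGTCA) at -183 to -176, a CCAAT box at -162 to -158 and 6 GC boxes, some of which overlap.
COL4A1-COL4A2 between starts: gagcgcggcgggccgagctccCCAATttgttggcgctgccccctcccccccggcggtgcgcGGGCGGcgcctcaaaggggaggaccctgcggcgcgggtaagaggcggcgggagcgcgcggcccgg
FN1: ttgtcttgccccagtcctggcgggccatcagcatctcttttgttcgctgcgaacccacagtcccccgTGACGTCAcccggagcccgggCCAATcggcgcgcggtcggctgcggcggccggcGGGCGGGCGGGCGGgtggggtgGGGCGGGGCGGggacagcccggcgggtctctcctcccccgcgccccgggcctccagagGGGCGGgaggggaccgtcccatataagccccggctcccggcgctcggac
Searched on both strands in windows of 300 bases, the CRE letters occurred in 1 of the 31 members with a window (FN1) and in 1.84% of 34796 promoter windows. The AP-1 letters TGANTCA occurred in 3 members (ITGA5, LAMA3 and LAMB3) and in 7.73% of windows, GGGCGG in 23 members and 44.9% of windows, and CCAAT in 9 members and 34.6%. A member with several windows, such as ITGA6, was counted if any of them held the letters, so members and single windows are not counted alike.

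In untreated cells (NT+noGV), the most abundant transcripts per length came from FN1, the laminin chain LAMB3, the integrin subunits ITGA3, ITGA6 and ITGB4, and THBS1, which encodes thrombospondin-1. FN1 stood at 448 ± 3.91 CPM per kb of transcript in Ecto, at 492 ± 21.2 in Endo and at 1204 ± 62.5 in VK2 cells (mean ± SD, n = 3). LAMB3, which assembles with LAMA3 in the laminin of hemidesmosomes, was at 454, 425 and 454 CPM per kb. LAMA3 differed more between the lines, from 52.2 to 127 and 242, and COL17A1 from 98.5 to 312 and 394 CPM per kb. ITGA6 was at 167, 508 and 585 CPM per kb and its partner ITGB4 at 133, 469.9 and 337. Among the integrin alpha subunits, ITGA1 was lowest in each line, at 1.75, 1.36 and 0.977 CPM per kb. Among the beta subunits ITGB3 was lowest, at 0.305, 0.0721 and 0.644 CPM per kb.

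**Figure D1:**
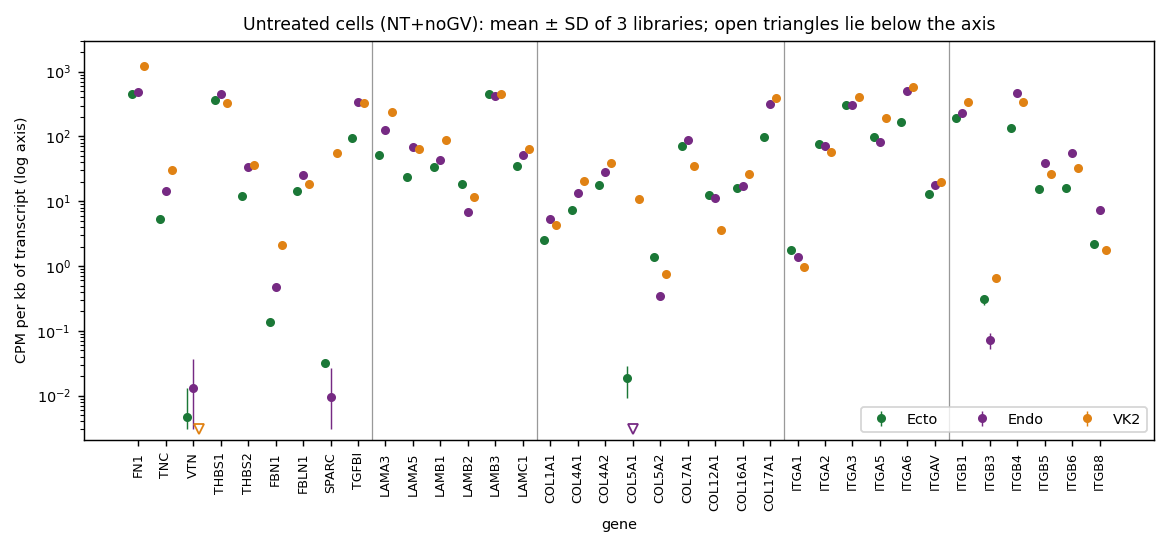
Level of each of the 36 transcripts in untreated cells, in CPM per kb of the canonical transcript on a log axis, as mean ± SD of 3 libraries per line (error bars stop at the foot of the axis). SPARC and COL5A1 sit at 54.9 and 10.96 CPM per kb in VK2 cells and near the foot of the plot in Ecto and Endo cells, and VTN is near 0 in all lines.

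SPARC, a collagen-binding matricellular protein, and COL5A1, a chain of fibrillar type V collagen, separated VK2 cells from the cervical lines. SPARC was at 176, 195 and 198 CPM in the untreated VK2 libraries and gathered 109 counts over all 24 Ecto libraries and 106 over all 24 Endo libraries. COL5A1 was at 92.1, 95.97 and 89.4 CPM in VK2 cells, with 111 counts in Ecto and 16 in Endo cells over 24 libraries each. VTN gathered 24 counts in all 72 libraries. COL1A1, the main chain of type I collagen, was at 14.8 ± 0.806, 31.4 ± 2.19 and 25.7 ± 0.990 CPM in untreated Ecto, Endo and VK2 cells. Over all 24 libraries of each line, treated ones included, its medians were 27.6, 37.6 and 35.2 CPM. The chain it assembles with, COL1A2, had medians of 0, 0 and 0.192 CPM over the same libraries. In a model of all 72 libraries, 30 of 35 tested members differed between untreated Ecto and Endo cells, 32 between Ecto and VK2 cells and 33 between Endo and VK2 cells (edgeR, adjusted p under 0.05). Of all genes tested, 63.9%, 63.8% and 59.6% did so.

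GV alone (NT+GV against NT+noGV) lowered fibronectin and thrombospondin-2 transcripts strongly in Endo cells, and raised fibrillin-1, tenascin-C and COL12A1 transcripts in all 3 lines. In bulk RNA, fewer cells of a kind and less RNA per cell cannot be told apart. In Ecto cells 13 of 33 tested members fell and 10 rose, where 23.7% of all genes tested fell and 20.9% rose. In Endo cells 20 of 34 fell and 8 rose, beside 28.7% and 25.7% of all genes. VK2 cells had 4 of 35 lower and 17 higher, beside 12.5% and 13.9%. The median log2 fold change of the members was -0.073 (Ecto), -0.27 (Endo) and 0.14 (VK2), against medians over all genes of 0.0029, -0.00089 and 0.0014. TNC, FBN1, LAMB3, COL1A1, COL12A1 and ITGA5 rose in each line, and THBS2, LAMB1, ITGA3 and ITGB5 fell in each line. In VK2 cells the call for ITGA3 (-0.13) is lost without NT+GV replicate 3 (-0.10, adjusted p = 0.052), and that for LAMB1 is lost without the low-count filter (-0.11, adjusted p = 0.064) and without NT+noGV replicate 3 (-0.084, adjusted p = 0.082).

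**Figure D2:**
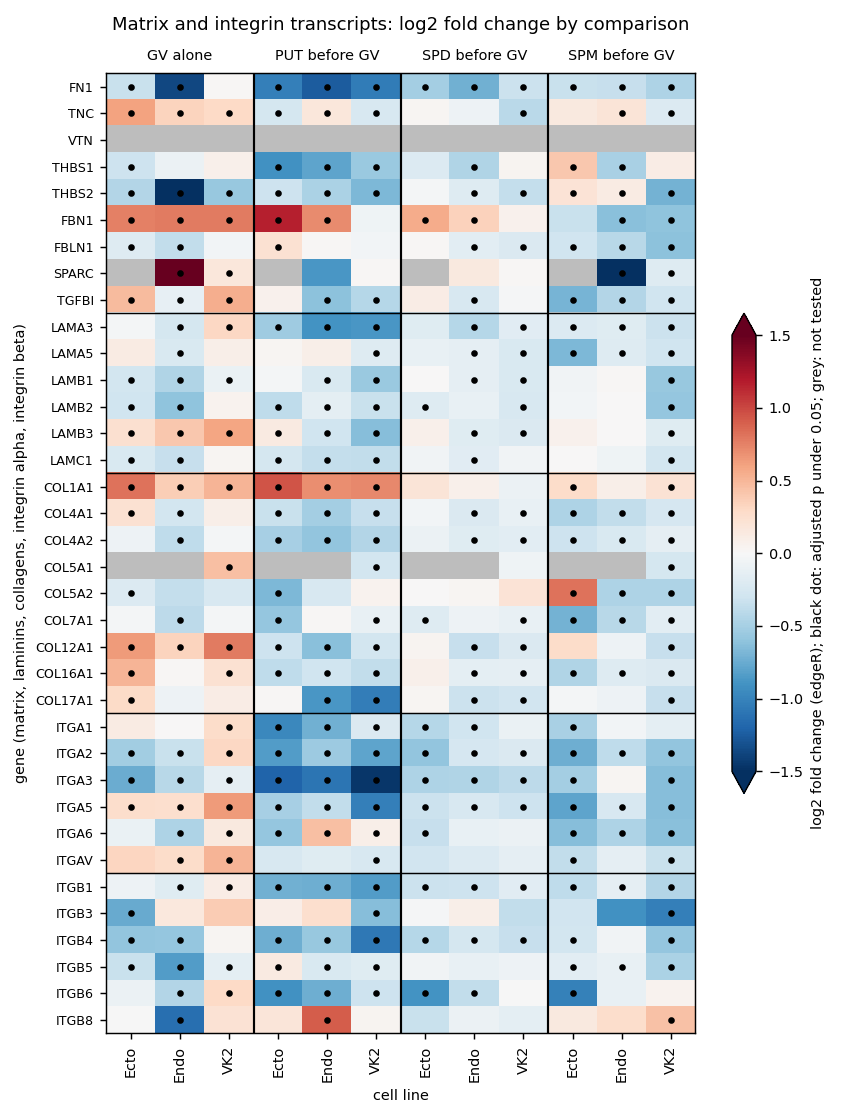
Log2 fold change of each member (rows, by role) with GV alone and with PUT, SPD or SPM before GV (against NT+GV), by line. Color is clipped at 1.5, black dots mark an adjusted p under 0.05, and grey marks members that were not tested. In the PUT columns ITGA3 is at -1.20, -1.09 and -1.46, and COL1A1 is the member that rose in all of them.

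FN1 (ENSG00000115414.21, chromosome 2 from 215360440 to 215436073 in GRCh38) encodes fibronectin. In Endo cells it was at 4157, 4289.7 and 3938 CPM without GV and 1694, 1595 and 1497 CPM with GV, and the groups did not overlap. Its log2 fold change there was -1.37 (SE 0.063, adjusted p = 1.1e-13). In VK2 cells FN1 was at 9519.9, 10245 and 10539 CPM without GV and 10142, 10337 and 9889.7 CPM with GV, so that the groups overlapped (0.021, adjusted p = 0.77). Ecto cells lay between, with 3756 ± 32.8 CPM before and 3001 ± 194 CPM after GV (-0.33, SE 0.12, adjusted p = 0.026). The Ecto value no longer passed without any 1 of the 3 NT+noGV libraries, NT+GV replicate 2 or NT+GV replicate 3 (-0.33 to -0.29, adjusted p at most 0.095). Even so, no NT+GV library of Ecto cells reached the untreated ones. The SE uses a spread shared by all Ecto libraries, and it was not estimated again without SPD+noGV replicate 3.

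THBS2, which encodes the antiangiogenic thrombospondin-2, fell from 193, 196 and 191 CPM to 63.1, 61.3 and 62.00 CPM in Endo cells, with no overlap. The log2 fold changes were -0.44 (Ecto), -1.63 (Endo) and -0.57 (VK2) (adjusted p at most 6.8e-06). THBS1 fell in Ecto cells (-0.31), a call that is lost without NT+noGV replicate 2 or 3 or NT+GV replicate 1 or 3 (-0.32 to -0.28, adjusted p at most 0.087), and it did not pass in Endo (-0.088) or VK2 cells (0.074). FBN1, the backbone of matrix microfibrils, was scarce in the cervical lines and rose by log2 fold changes of 0.75 (Ecto), 0.78 (Endo) and 0.78 (VK2). In VK2 cells, where it was most abundant, it went from 24.03, 25.6 and 24.1 to 41.9, 41.4 and 41.1 CPM, and all GV libraries lay above all noGV libraries. Tenascin-C (TNC), a matrix protein of wound edges, rose by 0.60 (Ecto), 0.33 (Endo) and 0.30 (VK2). TGFBI, an integrin-binding matrix protein induced by TGF-beta, rose in Ecto (0.47) and VK2 cells (0.55) and fell in Endo cells (-0.12). FBLN1, the elastic fiber protein fibulin-1, fell in Ecto (-0.20) and Endo cells (-0.37). SPARC in Endo cells passed the test from 3 counts over the NT+noGV libraries to 31 over the NT+GV libraries. The ratio was 9.42, with a 95% exact interval of 2.94 to 48.1 that covers counting error only. Over the 24 Endo libraries SPARC had a median of 0.0755 CPM and a highest value of 0.420 CPM. It thus cleared the low-count filter only through its higher libraries, and its call is not separate support for a rise. In VK2 cells SPARC rose by 0.17.

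Of the laminin chains, 5 of 6 fell in Endo cells, 3 in Ecto and 1 in VK2 cells, and LAMB3 rose in each line (Ecto 0.24, Endo 0.40, VK2 0.59). LAMA3 moved differently from LAMB3, at -0.029 (Ecto), -0.27 (Endo) and 0.31 (VK2), where the Ecto value did not pass. LAMB2 fell in Endo (-0.61) and Ecto cells (-0.30). Among the collagens, COL12A1, which decorates collagen fibrils, rose by 0.64 (Ecto), 0.33 (Endo) and 0.78 (VK2), and COL1A1 rose by 0.81 (Ecto), 0.37 (Endo) and 0.51 (VK2). In Ecto cells COL1A1 went from 14.3, 14.4 and 15.7 to 25.2, 24.7 and 28.8 CPM, and the groups stood apart. COL7A1, the collagen of anchoring fibrils, fell in Endo cells (-0.40, SE 0.039, adjusted p = 3.5e-10). COL4A2 fell in Endo cells (-0.38), as did COL4A1 (-0.28), while COL4A1 was higher in Ecto cells (0.23), a call lost without NT+GV replicate 2 (0.18, adjusted p = 0.063).

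ITGA3 and ITGB5 were the integrin subunits that fell with GV in each line. ITGA3 (chromosome 17 from 50055968 to 50090481 in GRCh38), which pairs with ITGB1, went from 1504, 1520.0 and 1484 CPM to 956, 852 and 893 CPM in Ecto cells (-0.75, SE 0.05, adjusted p = 1.0e-11), and its fall in Endo cells was smaller. There it fell by 0.41 on the log2 scale. ITGB4 (chromosome 17 from 75721328 to 75757818), the beta subunit of hemidesmosomes, fell in Ecto (-0.60) and Endo cells (-0.58) and was at 0.03 in VK2 cells, which did not pass. Its partner ITGA6 fell in Endo (-0.46) and rose in VK2 cells (0.14). The largest fall of a beta subunit was that of ITGB8 in Endo cells, from 69.3, 55.7 and 73.5 to 32.4, 24.8 and 33.03 CPM (-1.13, SE 0.15, adjusted p = 7.0e-06), with no overlap between the groups. ITGB8 pairs with ITGAV and activates latent TGF-beta, and in Ecto cells its CPM values overlapped fully, at 21.6, 18.2 and 20.2 and 21.7, 18.2 and 20.3. ITGAV itself rose in VK2 (0.51) and Endo cells (0.28, lost without NT+noGV replicate 2, 0.22, adjusted p = 0.055). ITGB5, another ITGAV partner, fell, with log2 fold changes of -0.34 (Ecto), -0.83 (Endo) and -0.15 (VK2). ITGA5, the alpha subunit of the fibronectin receptor, rose in each line, most in VK2 cells, from 774, 821 and 863 to 1271, 1288 and 1207 CPM (0.63, SE 0.044, adjusted p = 7.0e-13).

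Putrescine before GV (PUT+GV against NT+GV) lowered most of the members in each line, and COL1A1 was the member that rose in all 3. Of 33 tested members in Ecto cells, 21 fell and 5 rose, where 24.9% of all genes fell and 31.5% rose. In Endo cells 22 of 34 fell and 5 rose (all genes, 28.2% and 27.9%), and in VK2 cells 28 of 35 fell and 2 rose (all genes, 31.4% and 29%). The members' median log2 fold changes were -0.33, -0.36 and -0.35, against 0.075, 0.026 and 0.011 over all genes. A total of 17 of the 33 members tested in every line fell in all 3 lines. Of these, 14 did so under every alternative setting and omission of a library of the groups compared. These 14 were FN1, THBS1, THBS2, LAMA3, LAMC1, COL4A1, COL4A2, COL16A1, ITGA2, ITGA3, ITGA5, ITGB1, ITGB4 and ITGB6. In this and the other comparisons, genes passing in all 3 lines were counted among the members only, so no share of all genes stands beside them.

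**Figure D3:**
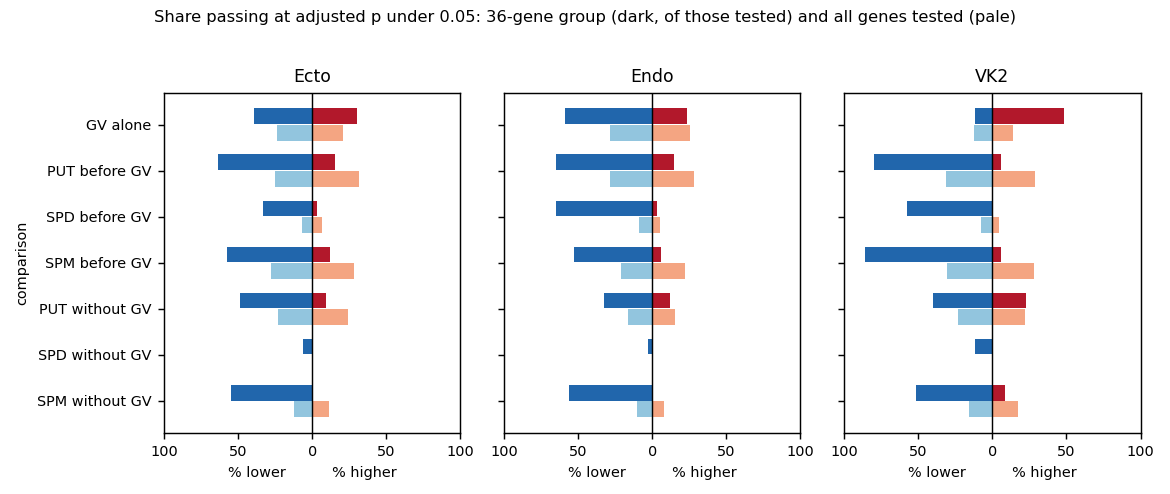
Percent of tested members (dark bars) and of all genes tested (pale bars) that were lower (left) or higher (right) at an adjusted p under 0.05, by comparison and line. With PUT before GV, 28 of 35 members fell in VK2 cells, beside 31.4% of all genes, and with SPD without GV few members passed in any line.

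FN1 fell in the 3 lines. It went from 3215, 2953 and 2836 CPM in NT+GV to 1403, 1456 and 1408 CPM in PUT+GV Ecto cells. In Endo cells, where GV had already lowered it, the PUT+GV libraries held 706, 659 and 640.2 CPM. VK2 cells went from 10142, 10337 and 9889.7 to 4939.7, 5059 and 4602 CPM. No PUT+GV library reached the lowest NT+GV library of its line. The log2 fold changes were -1.03 (Ecto), -1.25 (Endo) and -1.05 (VK2) (adjusted p at most 3.6e-07). THBS1, which binds fibronectin and activates latent TGF-beta, fell, with log2 fold changes of -0.90 (Ecto), -0.79 (Endo) and -0.56 (VK2), and THBS2 at -0.31 (Ecto), -0.47 (Endo) and -0.67 (VK2). TNC fell in Ecto (-0.27) and VK2 cells (-0.24) and rose in Endo cells (0.17). TGFBI fell in Endo (-0.62) and VK2 cells (-0.43).

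FBN1 and COL1A1 moved the other way. FBN1 in Ecto cells was at 1.66, 1.66 and 1.53 CPM untreated, 2.503, 3.18 and 2.52 CPM with GV and 5.95, 5.97 and 5.83 CPM with PUT+GV, and the groups did not overlap. Its log2 fold change with PUT before GV was 1.17 (SE 0.13, adjusted p = 3.4e-08) in Ecto and 0.70 (SE 0.079, adjusted p = 5.8e-09) in Endo cells, while the value in VK2 cells (-0.06) did not pass. COL1A1 rose in Ecto cells from 25.2, 24.7 and 28.8 to 48.99, 51.1 and 46.4 CPM. In Endo cells it was at 42.5, 40.5 and 38.9 and 64.7, 62.98 and 69.5 CPM, and in VK2 cells at 37.9, 34.4 and 35.9 and 60.3, 59.4 and 58.1 CPM. The groups stood apart in each line, with log2 fold changes of 0.95 (Ecto), 0.70 (Endo) and 0.72 (VK2). The other fibril-forming chains did not share this rise, as COL5A2 fell in Ecto cells (-0.68) and COL5A1 fell in VK2 cells (-0.28).

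**Figure D4:**
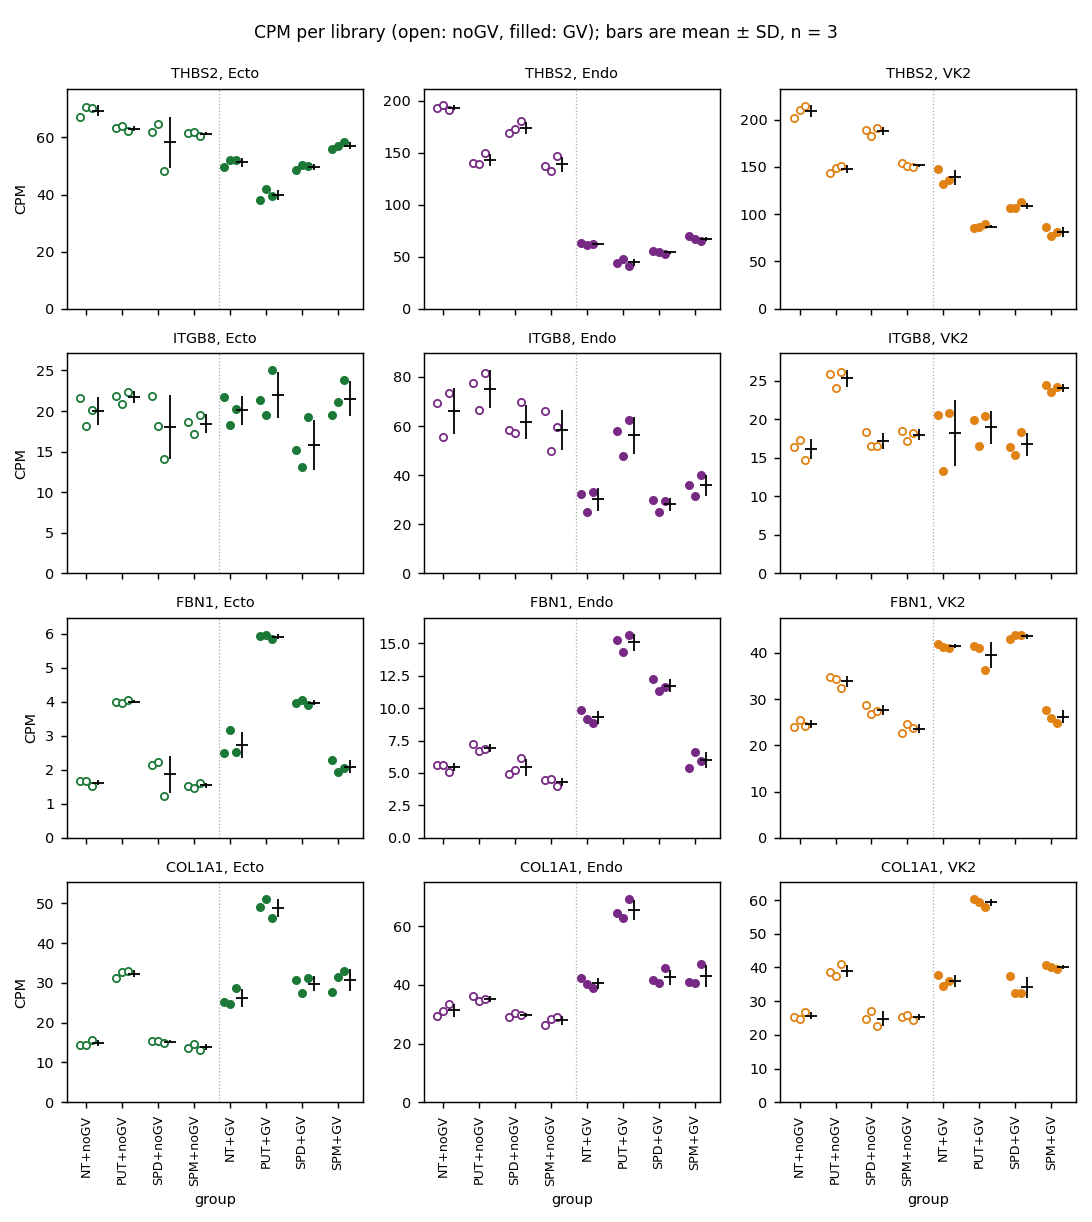
CPM of THBS2, ITGB8, FBN1 and COL1A1 in each library by group and line (open points noGV, filled points GV, bars mean ± SD, n = 3, linear axes from 0). FBN1 and COL1A1 lie higher in the PUT+GV than in the NT+GV libraries of Ecto and Endo cells, and ITGB8 in Endo cells lies at 30.1 ± 4.57 CPM in NT+GV and 56.2 ± 7.49 CPM in PUT+GV.

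Of the 6 laminin chains, 3, 5 and 6 fell with PUT before GV in the order Ecto, Endo and VK2, and 1, 0 and 0 rose. LAMA3 had log2 fold changes of -0.53 (Ecto), -0.90 (Endo) and -0.87 (VK2). LAMB3 fell in Endo (-0.30) and VK2 cells (-0.64), and in Ecto cells it was at 0.13, a call lost with RLE scaling, with DESeq2, without the low-count filter and without NT+GV replicate 2, PUT+GV replicate 2 or PUT+GV replicate 3 (0.066 to 0.12, adjusted p at most 0.21). LAMC1, shared by most other laminins, fell, with log2 fold changes of -0.26 (Ecto), -0.36 (Endo) and -0.37 (VK2). COL17A1 (chromosome 10 from 104031286 to 104085880) fell in Endo cells from 1708, 1676 and 1597 to 911, 933 and 854 CPM and in VK2 cells from 2276, 2531 and 2299 to 1144, 1206 and 1113 CPM. In Ecto cells its libraries overlapped, at 673, 685 and 675 and 651, 681 and 647 CPM. The log2 fold changes were 0.013 (Ecto), -0.88 (Endo) and -1.03 (VK2). COL4A1 and COL4A2 fell in each line, COL4A1 at -0.33 (Ecto), -0.51 (Endo) and -0.35 (VK2) and COL4A2 at -0.50 (Ecto), -0.59 (Endo) and -0.44 (VK2).

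**Figure D5:**
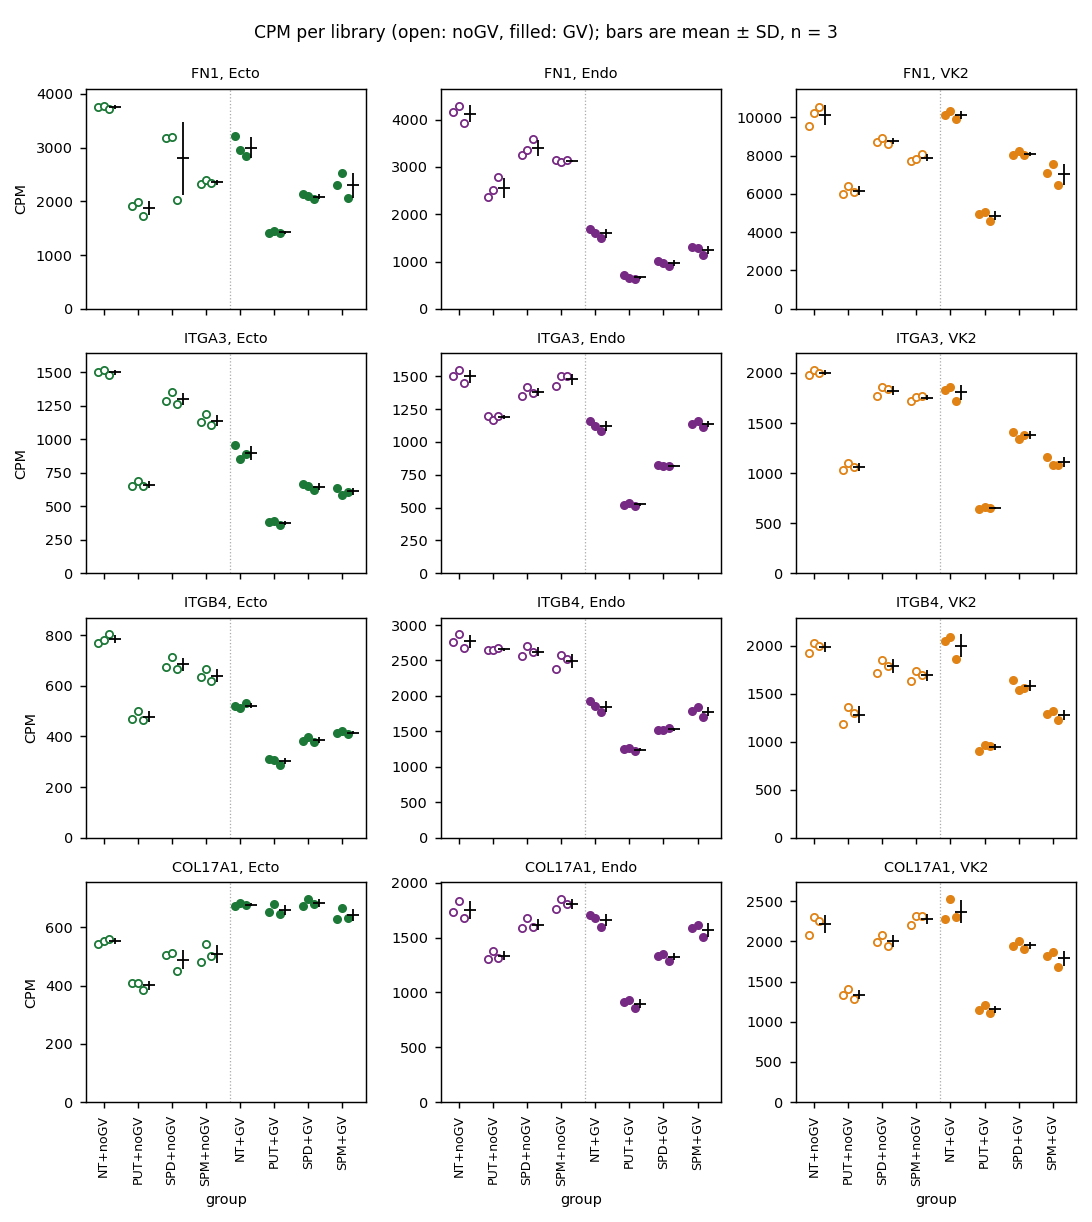
CPM of FN1, ITGA3, ITGB4 and COL17A1 in each library by group and line (open points noGV, filled points GV, bars mean ± SD, n = 3, linear axes from 0). The PUT+GV libraries lie below the NT+GV libraries for FN1, ITGA3 and ITGB4 in each line, and for COL17A1 in Endo and VK2 cells.

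Of the integrin alpha subunits, ITGA3 fell most, from 1832, 1858 and 1724 CPM to 640.3, 664 and 651 CPM in VK2 cells. Its log2 fold changes with PUT before GV were -1.20 (Ecto), -1.09 (Endo) and -1.46 (VK2) (adjusted p at most 1.4e-15), and no library of one group reached the other. ITGA2, a collagen receptor, fell, with log2 fold changes of -0.84 (Ecto), -0.54 (Endo) and -0.79 (VK2). ITGA5 fell in VK2 cells from 1271, 1288 and 1207 to 602, 599 and 646 CPM (-1.02, SE 0.045, adjusted p = 1.4e-18), below the 819 ± 44.5 CPM of untreated cells. ITGA6 did not follow, as it fell in Ecto cells (-0.58) and rose in Endo cells (0.45). ITGB1, which pairs with ITGA1, ITGA2, ITGA3 and ITGA5, fell, with log2 fold changes of -0.72 (Ecto), -0.74 (Endo) and -0.84 (VK2). ITGB4 fell, with log2 fold changes of -0.74 (Ecto), -0.57 (Endo) and -1.08 (VK2), and in VK2 cells it went from 2049, 2091 and 1867 to 907, 971 and 959 CPM. ITGB6, an epithelial ITGAV partner that activates latent TGF-beta, fell, with log2 fold changes of -0.91 (Ecto), -0.73 (Endo) and -0.31 (VK2). ITGB8 rose in Endo cells from 32.4, 24.8 and 33.03 to 58.1, 47.9 and 62.5 CPM (0.91, SE 0.15, adjusted p = 7.9e-05), near the level without GV.

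Spermidine before GV (SPD+GV against NT+GV) lowered FN1 and some of the integrin subunits in all 3 lines. In Ecto cells 11 of 33 fell and 1 rose, in Endo cells 22 of 34 and 1, and in VK2 cells 20 of 35 and 0. Over all genes, the lower and higher shares were 6.6% and 6.53% in Ecto, 8.71% and 5.22% in Endo and 7.87% and 4.84% in VK2 cells. FN1, ITGA2, ITGA3, ITGA5, ITGB1 and ITGB4 fell in all 3 lines, and ITGA2 in Ecto cells lost its call without NT+GV replicate 1 (-0.49, adjusted p = 0.062). ITGA3 was at 1161, 1121 and 1084 CPM in NT+GV and 822, 819 and 814 CPM in SPD+GV Endo cells, and its log2 fold changes were -0.46 (Ecto), -0.45 (Endo) and -0.39 (VK2). FN1 stood at 1021, 965 and 905 CPM in SPD+GV Endo cells. Integrin subunits made up 8 of the 11 members that fell in Ecto cells, led by ITGB6 (-0.89, SE 0.072, adjusted p = 3.2e-08). They were 5 of 6 tested alpha and 3 of 6 tested beta subunits. In VK2 cells 3 of 6 alpha and 2 of 6 beta subunits fell, beside 5 of 6 laminin and 6 of 9 collagen chains. The member that rose in both cervical lines was FBN1, by 0.55 in Ecto (lost without NT+GV replicate 1, 0.49, adjusted p = 0.056) and 0.34 in Endo cells. LAMA3 fell in Endo (-0.43) and VK2 cells (-0.17), and so did COL17A1 (-0.32 and -0.28).

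Spermine before GV (SPM+GV against NT+GV) lowered most members in VK2 cells and fewer in the cervical lines. VK2 cells had 30 of 35 lower and 2 higher, where 30.3% of all genes fell and 27.9% rose. Ecto cells had 19 of 33 lower and 4 higher (all genes, 27.5% and 28.5%). In Endo cells 18 of 34 fell and 2 rose (all genes, 21.1% and 21.9%). A total of 14 members fell in all 3 lines and 0 rose in all, and 11 of the 14 fell under every alternative and omission. The 11 were FBLN1, TGFBI, LAMA5, COL4A1, COL4A2, COL7A1, COL16A1, ITGA2, ITGA5, ITGA6 and ITGB1. The share of all genes that fell in all 3 lines was not counted.

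TGFBI fell, with log2 fold changes of -0.70 (Ecto), -0.44 (Endo) and -0.30 (VK2) and FBLN1 at -0.29 (Ecto), -0.42 (Endo) and -0.61 (VK2). FBN1 fell in Endo cells from 9.88, 9.15 and 8.88 to 5.400, 6.64 and 5.94 CPM and in VK2 cells from 41.9, 41.4 and 41.1 to 27.7, 25.98 and 24.8 CPM, where its log2 fold change was -0.60 (SE 0.053, adjusted p = 2.2e-11). These levels were close to those without GV (5.45 ± 0.333 and 24.6 ± 0.881 CPM). FN1 fell, with log2 fold changes of -0.33 (Ecto), -0.35 (Endo) and -0.46 (VK2), and the Ecto call was lost without NT+GV replicate 1 or without SPM+GV replicate 3 (-0.29 to -0.26, adjusted p at most 0.084). THBS2 fell in VK2 cells (-0.71, SE 0.044, adjusted p = 4.6e-15), from 148, 132 and 137 to 86.3, 76.6 and 80.8 CPM, and rose in Ecto cells (0.21, lost without NT+GV replicate 1, 0.17, adjusted p = 0.069). THBS1 rose in Ecto (0.40) and fell in Endo cells (-0.49).

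COL7A1 fell, with log2 fold changes of -0.71 (Ecto), -0.41 (Endo) and -0.16 (VK2), and COL5A2 rose in Ecto cells from 8.41, 8.26 and 7.93 to 14.5, 13.1 and 14.1 CPM (0.81, SE 0.077, adjusted p = 1.7e-09) while it fell in VK2 cells (-0.46). LAMA3 and LAMA5 were the laminin chains that passed in Ecto and Endo cells, and in VK2 cells LAMB1 (-0.57) and LAMB2 (-0.58) had the lowest values of the chains. LAMA3, unlike LAMA5, did not keep its call in both cervical lines under every alternative and omission. LAMA5, the alpha chain of the most widespread epithelial laminins, fell, with log2 fold changes of -0.67 (Ecto), -0.19 (Endo) and -0.30 (VK2). ITGA6 fell, with log2 fold changes of -0.64 (Ecto), -0.46 (Endo) and -0.63 (VK2). Its values with PUT before GV, at another dose, were -0.58 (Ecto), 0.45 (Endo) and 0.086 (VK2). In VK2 cells its CPM was 3734, 3594 and 3813 in NT+GV and 2461, 2155 and 2279 in SPM+GV, with no overlap. The value of 0.086 with PUT in VK2 cells did not pass without the low-count filter or without NT+GV replicate 1 or 2 or PUT+GV replicate 1 or 3 (0.039 to 0.085, adjusted p at most 0.4). ITGA3 fell with SPM in Ecto (-0.51) and VK2 cells (-0.64) and overlapped in Endo cells, at 1161, 1121 and 1084 and 1136, 1159.9 and 1113 CPM (0.027, adjusted p = 0.54). ITGB6 fell in Ecto cells from 74.3, 68.5 and 70.5 to 31.3, 36.7 and 34.2 CPM (-1.01, SE 0.073, adjusted p = 9.6e-12). The scarce ITGB3 fell in VK2 cells from 5.29, 3.51 and 5.68 to 2.63, 2.31 and 1.93 CPM (-1.02, SE 0.17, adjusted p = 5.4e-06). ITGB8 rose in VK2 cells (0.44), a value that is 0.28, adjusted p = 0.005 without NT+GV replicate 2, the lowest of its group at 13.3 CPM. SPARC in Endo cells fell (-1.74) from 31 counts to 8 over 3 libraries each, and did not pass with DESeq2 (-1.78, adjusted p = 0.066) or without NT+GV replicate 1, SPM+GV replicate 1 or SPM+GV replicate 3. The limit set by the low-count filter, given above for SPARC, holds here too.

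SPM and SPD were given at the same concentration and for the same time, and their structures differ by a single aminopropyl arm. With GV, SPM+GV cells were lower than SPD+GV cells for 10 of 33 members in Ecto, 10 of 34 in Endo and 22 of 35 in VK2 cells, and higher for 6, 14 and 3. The lower and higher shares of all genes were 26.2% and 27.6% in Ecto, 21.2% and 23.4% in Endo and 27.5% and 25.1% in VK2 cells. FBN1 had the lowest value in each line among the 5 members that were lower with SPM in all 3 lines, at -0.89 (Ecto), -0.97 (Endo) and -0.66 (VK2). In Endo cells it was at 12.3, 11.3 and 11.7 CPM with SPD+GV and 5.400, 6.64 and 5.94 CPM with SPM+GV, with no overlap. TGFBI (Ecto -0.81, Endo -0.21, VK2 -0.28), ITGA6 (Ecto -0.29, Endo -0.36, VK2 -0.54) and FBLN1 (Ecto -0.31, Endo -0.26, VK2 -0.39) were lower as well. ITGA3 was higher with SPM than with SPD in Endo (0.48) and lower in VK2 cells (-0.25). In Ecto cells, FN1 did not pass between these compounds, with a difference of 0.18 (SE 0.12), nor did ITGA3 (-0.046, SE 0.05), with 95% intervals of -0.07 to 0.42 and -0.15 to 0.061.

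Without GV, SPM+noGV cells were lower than SPD+noGV cells for 8, 12 and 14 members in Ecto, Endo and VK2 cells and higher for 2, 1 and 5. Beside these stand 10% lower and 10.4% higher of all genes in Ecto, 6.92% and 5.73% in Endo and 13.1% and 15.2% in VK2 cells. The Ecto count of members that differed, 10, was 6 without SPM+noGV replicate 1 or without SPM+noGV replicate 3 and 12 without SPD+noGV replicate 3. COL7A1 was lower with SPM in each line (Ecto -0.58, Endo -0.28, VK2 -0.18). PUT was given at 4 mM, so its values are set beside those of SPD and SPM without a comparison.

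Without GV, PUT lowered 16 of 33 members in Ecto, 11 of 34 in Endo and 14 of 35 in VK2 cells and raised 3, 4 and 8. Of all genes, 22.9% and 23.9% in Ecto, 16.3% and 15.6% in Endo and 23% and 22% in VK2 cells were lower and higher. In Ecto cells ITGA2 fell from 629, 598 and 595 to 269, 276 and 243 CPM (-1.19, SE 0.14, adjusted p = 1.3e-06). ITGA3 fell from 1504, 1520.0 and 1484 to 649, 689.7 and 648 CPM (-1.16, SE 0.051, adjusted p = 5.2e-15). FBN1 rose to 4.01, 3.96 and 4.05 CPM (1.33) and COL1A1 to 31.3, 32.7 and 32.9 CPM (1.14). None of these groups overlapped the untreated libraries. FN1 fell in all 3 lines, with log2 fold changes of -0.98 (Ecto), -0.69 (Endo) and -0.70 (VK2), and COL17A1 at -0.44 (Ecto), -0.39 (Endo) and -0.71 (VK2). ITGA6 rose in Endo (0.64) and VK2 cells (0.46), and ITGB8 rose in VK2 cells from 16.4, 17.3 and 14.7 to 25.9, 24.1 and 26.1 CPM (0.67, SE 0.11, adjusted p = 5.3e-05).

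SPM without GV lowered 18, 19 and 18 members in Ecto, Endo and VK2 cells and raised 0, 0 and 3, where the shares of all genes were 12.2%, 10.1% and 15.6% lower and 11.3%, 8.02% and 17.4% higher. ITGB3 had the largest value, from 2.097, 1.89 and 1.46 to 0.529, 0.433 and 0.590 CPM in Ecto cells (-1.80, SE 0.27, adjusted p = 1.7e-05). COL7A1 fell, with log2 fold changes of -0.73 (Ecto), -0.47 (Endo) and -0.37 (VK2), FN1 at -0.66 (Ecto), -0.40 (Endo) and -0.34 (VK2) and TNC at -0.44 (Ecto), -0.26 (Endo) and -0.16 (VK2). The members that rose in VK2 cells were ITGA2 (0.25), ITGB1 (0.15) and ITGB6 (0.52).

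SPD without GV lowered 2 members (Ecto), 1 (Endo) and 4 (VK2) and raised 0 in each line by edgeR, beside 0.164%, 0.08% and 0.222% lower and 0.139%, 0.101% and 0.238% higher of all genes. At an unadjusted p under 0.05, 17, 16 and 15 members differed in either direction. Of all genes tested, 2884 of 19459 (Ecto), 1828 of 18741 (Endo) and 1824 of 18474 (VK2) did so. DESeq2 called 9, 5 and 9 members, for which no share of all genes is given. COL7A1 (-0.18 in Endo and -0.19 in VK2 cells) and LAMA5 (-0.31 in Ecto and -0.17 in VK2 cells) were among those called. The counts hang on single libraries. In Ecto cells the count was 0 without SPD+noGV replicate 3 and without each of the NT+noGV libraries, 8 without SPD+noGV replicate 1 and 10 without SPD+noGV replicate 2. In Endo cells it was 0 in 5 of the 6 omissions, and in VK2 cells it went down to 1 without SPD+noGV replicate 1. FN1 in the SPD+noGV Ecto libraries stood at 3183, 3198 and 2017 CPM, where replicate 3 was the lowest.

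Whether the difference made by a polyamine itself differed between GV and noGV was tested as an interaction. For PUT, 11 members passed (Ecto), 22 (Endo) and 29 (VK2), where 26.4%, 34.8% and 27.6% of all genes did. In VK2 cells all 29 were negative, so that PUT lowered these members more, or raised them less, with GV than without. Among all genes that passed there, 3287 were negative and 1815 positive. ITGA2 in VK2 cells had an interaction of -0.93 (SE 0.07, adjusted p = 2.0e-10), with PUT at 0.14 without GV (a call lost without NT+noGV replicate 1 or PUT+noGV replicate 1) and -0.79 with GV. FN1 had an interaction of -0.56 in Endo and -0.36 in VK2 cells, and that in Ecto cells (-0.043, SE 0.16) did not pass. ITGA3 was at -0.75 in Endo and -0.56 in VK2 cells. ITGB8 had 0.73 in Endo and -0.63 in VK2 cells. For SPM, 15, 12 and 22 members passed in Ecto, Endo and VK2 cells, beside 36.3%, 24.3% and 38.9% of all genes. In VK2 cells 20 of them were negative, against 8 in Ecto and 5 in Endo cells. Among all genes that passed, 4048 were negative and 3137 positive in VK2, 3367 and 3697 in Ecto and 1910 and 2650 in Endo cells. TGFBI (Ecto -0.20, Endo -0.21, VK2 -0.22) and COL4A1 (Ecto -0.27, Endo -0.32, VK2 -0.29) were negative in each line. In Ecto cells the call for TGFBI was lost without NT+noGV replicate 1 (-0.18, adjusted p = 0.051), and that for COL4A1 without any of 7 single libraries (NT+noGV replicates 2 and 3, NT+GV replicate 2, SPM+noGV replicates 1 and 2, and SPM+GV replicates 2 and 3, -0.28 to -0.23, adjusted p at most 0.088). COL1A1 was positive in each line (Ecto 0.36, Endo 0.27, VK2 0.23), but its call was lost in Endo cells without NT+noGV replicate 3, NT+GV replicate 3, SPM+noGV replicate 1 or SPM+GV replicate 3 (0.20 to 0.22, adjusted p at most 0.095) and in VK2 cells without NT+GV replicate 2 or 3, NT+noGV replicate 3 or SPM+noGV replicate 3 (0.20 to 0.23, adjusted p at most 0.081). For SPD the counts were 1, 12 and 3, beside 3.13%, 3.45% and 0.352%, and the Ecto count was 10 without SPD+noGV replicate 3.

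Genes whose products assemble did not always move together. COL4A1 and COL4A2 had the same sign wherever both passed, with values of -0.28 and -0.38 for GV alone in Endo cells and -0.47 and -0.31 for SPM before GV in Ecto cells. ITGA6 and ITGB4, the pair of the hemidesmosome, split with PUT before GV in Endo cells, where ITGA6 went from 2234, 2051 and 2114 to 3089, 2753 and 2874 CPM and ITGB4 from 1924, 1857 and 1768 to 1246, 1266 and 1221 CPM. LAMA3 and LAMB3 split with GV alone in Endo cells, at -0.27 and 0.40. FN1 and ITGA5, ligand and receptor, both fell with PUT before GV, while with GV alone in Endo cells FN1 fell and ITGA5 rose (0.25).

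Responses of the lines were compared in the model of 72 libraries. With GV alone, 21 of 35 members responded differently in Ecto and Endo cells, 17 in Ecto and VK2 cells and 26 in Endo and VK2 cells, beside 28%, 27.5% and 25.8% of all genes. The Ecto and VK2 count was 10 without replicate 1 of every group. FN1 differed by -1.38 (SE 0.12, adjusted p = 1.7e-13) between Endo and VK2 cells and THBS2 by -1.05 (SE 0.073, adjusted p = 3.1e-18). With PUT before GV, 18, 18 and 15 members differed between the same pairs of lines, beside 24.8%, 35% and 22.4% of all genes, and the Ecto and Endo count was 10 without replicate 1 of every group. COL17A1 differed by 1.00 (SE 0.066, adjusted p = 1.2e-19) between Ecto and VK2 cells. FN1 was not found to differ between Ecto and VK2 cells there (-0.021, SE 0.12, adjusted p = 0.93). With SPM before GV the counts were 13, 20 and 17, beside 25.8%, 31.6% and 24.6%. Without the low-count filter, the scaling factors of this model shift the difference between Ecto and VK2 cells with SPM before GV by a median of -0.15 over the listed genes, so differences of that size between these lines depend on the scaling.

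Genes that work with the members were counted from further lists, always in the order Ecto, Endo and VK2. Unlike those of the members, their calls were not followed through the alternatives and omissions. Genes named from these lists are given without their levels, so some may be scarce. The shares of all genes to read these counts against were, with GV alone, 23.7%, 28.7% and 12.5% lower and 20.9%, 25.7% and 13.9% higher. With PUT before GV they were 24.9%, 28.2% and 31.4% lower and 31.5%, 27.9% and 29% higher, and with SPM before GV 27.5%, 21.1% and 30.3% lower and 28.5%, 21.9% and 27.9% higher. Of 25 focal adhesion adaptors, which tie integrins to actin, 15 (Ecto), 14 (Endo) and 20 (VK2) fell with PUT before GV, and 3, 2 and 4 rose. LPP, a LIM-domain protein of focal adhesions, fell in Ecto cells (-1.18), and FERMT1, the integrin activator kindlin-1, in Endo cells (-1.13). TNS1, the actin-binding adaptor tensin-1, rose in Ecto (1.99) and Endo cells (1.37). With GV alone 17, 11 and 2 adaptors fell and 3, 6 and 11 rose. Of 12, 13 and 12 tested basement membrane linkers and hemidesmosome genes, 7, 6 and 10 fell and 0, 1 and 0 rose with SPM before GV, and DST, which encodes the hemidesmosome plakin BPAG1, fell with GV alone in Ecto cells (-1.20). HSPG2, the basement membrane proteoglycan perlecan, fell with PUT before GV in Endo cells (-1.17), where FREM1, a protein of the epithelial basement membrane, rose (2.45). Of 15 tested genes of collagen modification and crosslinking, 8, 10 and 10 (Ecto, Endo, VK2) rose and 2, 1 and 0 fell with GV alone, and 9, 10 and 11 fell and 4, 2 and 2 rose with PUT before GV. PLOD2, a lysyl hydroxylase of collagen, rose with GV in Ecto cells (1.11), and LOX, which crosslinks collagen, fell with PUT before GV in Endo cells (-1.06).

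Among other matrix receptors, SDC2, the heparan sulfate proteoglycan syndecan-2, rose with PUT before GV by 1.89 (Ecto), 1.67 (Endo) and 1.77 (VK2), and DDR2, a receptor tyrosine kinase for fibrillar collagen, rose with SPM before GV by 3.16 (Ecto), 1.86 (Endo) and 2.48 (VK2). Of 10 such receptors, 3, 1 and 1 rose and 5, 4 and 5 fell with SPM before GV, beside the shares given above. Of the other matricellular and elastic fiber proteins, 10 of 20, 10 of 19 and 12 of 20 tested fell with SPM before GV, while 2, 3 and 3 rose. The risers included CCN1 (Ecto 1.79, Endo 2.02, VK2 3.12) and CCN2 (Ecto 2.53, Endo 2.02, VK2 4.49), integrin-binding matricellular proteins. TNFAIP6, a hyaluronan-binding protein of inflammation, rose with GV alone in Ecto (3.86) and Endo cells (4.39). Of 8 tested TGF-beta ligands, receptors and target genes, 5, 4 and 6 rose with PUT before GV and 2, 1 and 2 fell, and the ligand TGFB3 rose by 1.57 (Ecto), 1.66 (Endo) and 1.40 (VK2). Of 23, 22 and 26 tested other laminin, integrin and collagen chains, 5, 6 and 16 fell and 7, 3 and 2 rose with SPM before GV, so that in Ecto cells more rose than fell. COL8A1, a short-chain collagen, fell with GV alone in Endo cells (-2.73), and LAMA2, an alpha chain best known from muscle, rose with SPM before GV in Ecto (2.61) and VK2 cells (1.26). Of the 10 epithelial markers, 7 fell and 2 rose with GV alone in Ecto, 5 and 3 in Endo and 1 and 3 in VK2 cells, beside the members' counts given above for the same comparison.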

How the data were processed

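The 72 libraries were total RNA libraries of Ecto, Endo and VK2 cells. The authors depleted ribosomal RNA, prepared CORALL libraries, quantified reads with Salmon against GENCODE release 44 and summed transcripts to genes with tximeta, and they deposited estimated counts per gene for all libraries. How unique molecular identifiers were handled is not given in the sources used here. The estimated counts were rounded to whole numbers. In each line, edgeR 4.0.16 was run on 24 libraries in 8 groups (TMM factors, filterByExpr, robust quasi-likelihood fit), and a model of 24 groups over 72 libraries compared the lines. P-values were adjusted by Benjamini-Hochberg over all genes of a comparison, and rose, fell or passed mean an adjusted p under 0.05. Log2 fold changes are from these fits, CPM use 1 set of TMM factors over all libraries (so their ratios can differ slightly from the fits), and CPM per kb divides by the canonical transcript. Intervals of SPM against SPD multiply the SE by t with 16 residual degrees of freedom. DESeq2 1.42.0, RLE factors, no filter, the replicate number as a block and omission of each library of the groups compared were the alternatives. Libraries of the other groups, which share the estimate of the spread, were not omitted. In the model of 72 libraries, a replicate number was omitted from every group at once. The comparison of SPM with SPD without GV was added after seeing the data. On simulated counts for PUT before GV in Ecto cells, edgeR recovered 76 of 100 genes raised by 0.5 on the log2 scale and 87 of 100 lowered by 1, with 4 false calls. These counts were drawn from the spreads that edgeR itself had fitted. Only the planted genes were changed, of 18671 tested, a far smaller share than passed in the data. The false calls are therefore no error rate for the data. The lists (members by role, focal adhesion adaptors, hemidesmosome, collagen modification, receptors, matricellular, TGF-beta, other chains and markers) and their members were chosen with earlier results of these data known. All members could be named, values per library were meant for members that passed with at least a 2-fold difference and for partners that act together, with others shown after their values were seen, and of other lists up to 3 genes per comparison with the smallest adjusted p and at least a 2-fold difference could be named. Replicates are not stated to be separate cultures, so p-values reflect only how these samples spread, which may be technical. Values of some genes of the other lists are not reported here.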

Additional observations from a re-analysis of the deposited data

Results flagged for a closer look

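Responses that differed between the lines were picked out by a test of the difference itself in the model of 72 libraries, at an adjusted p under 0.05 by edgeR. For GV alone, 21 members differed between Ecto and Endo cells, 17 between Ecto and VK2 cells and 26 between Endo and VK2 cells, where 28%, 27.5% and 25.8% of all genes did. For PUT before GV the counts were 18, 18 and 15, beside 24.8%, 35% and 22.4% of all genes, and for SPM before GV they were 13, 20 and 17, beside 25.8%, 31.6% and 24.6%. The difference made by a polyamine itself differed between GV and noGV for 11 members with PUT, 1 with SPD and 15 with SPM in Ecto cells, where 26.4%, 3.13% and 36.3% of all genes did. These counts were 22, 12 and 12 in Endo cells, beside 34.8%, 3.45% and 24.3%, and 29, 3 and 22 in VK2 cells, beside 27.6%, 0.352% and 38.9%.

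Some members passed in opposite directions in a pair of lines, and the values below are differences of log2 fold changes. Several rest on a call in a single line that was lost under an alternative or omission, as given above. With PUT before GV these include LAMB3 in Ecto and ITGA6 in VK2 cells. COL4A1 with GV alone and THBS2 with SPM before GV, each in Ecto cells, are further cases. With GV alone, the Ecto minus Endo difference was 0.61 for TGFBI and 0.52 for COL4A1. Ecto minus VK2 was -0.80 for ITGA2. Endo minus VK2 was -0.66 for TGFBI, -0.56 for LAMA3, -0.63 for ITGA2, -0.60 for ITGA6, -0.28 for ITGB1 and -0.72 for ITGB6. With PUT before GV, Ecto minus Endo was -0.49 for TNC, 0.38 for LAMB3, -1.08 for ITGA6 and 0.32 for ITGB5. Ecto minus VK2 was 0.72 for LAMB3, -0.71 for ITGA6 and 0.26 for ITGB5, and Endo minus VK2 was 0.41 for TNC. With SPM before GV, Ecto minus Endo was 0.85 for THBS1 and 1.24 for COL5A2. Ecto minus VK2 was 0.93 for THBS2 and 1.29 for COL5A2, and Endo minus VK2 was 0.46 for TNC and 0.89 for THBS2.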

How the results depend on the processing

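Counts of members that passed moved by over 1.5 times mainly for SPD. For SPD without GV, Ecto cells had 2 members by the edgeR fit reported, 1 with RLE factors, 14 without the low-count filter and 9 with DESeq2, and 0 to 10 when a library was omitted. Endo cells had 1, then 3 without the filter, 5 with DESeq2 and 0 to 1 on omission, and VK2 cells had 4, then 9 with DESeq2 and 1 to 4 on omission. For the interaction of SPD with GV, Ecto cells had 1 member, then 3 with RLE factors, 3 without the filter, 5 with DESeq2 and 1 to 10 on omission. Endo cells had 12, then 6 to 13 on omission (6 without NT+GV replicate 1, and 7 without NT+noGV replicate 1, NT+noGV replicate 3, SPD+GV replicate 2 or SPD+noGV replicate 3), and VK2 cells had 3, then 6 with DESeq2 and 0 to 4 on omission (0 without SPD+GV replicate 2, and 1 without NT+noGV replicate 1, NT+GV replicate 1 or SPD+noGV replicate 2). SPM against SPD without GV in Ecto cells had 6 to 12 on omission. The model of all lines gave 10 to 16 for GV alone between Ecto and VK2 cells and 10 to 18 for PUT before GV between Ecto and Endo cells. ITGA3 with SPM before GV, Ecto minus VK2, was 0.14 and became -0.00862 without the filter, where the scaling factors themselves shift this comparison by -0.15.

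Replicate numbers were shared by the groups, but the sources do not say what a number stands for, and not every pair deviated together: of 84 pairs of same-numbered libraries in each line, 28 (Ecto), 56 (Endo) and 37 (VK2) had deviations that correlated by over 0.1, and 15, 20 and 19 of 24 libraries correlated best with their own number. With the replicate block, SPD without GV gave 4 members in Ecto and 6 in Endo cells, and the interaction of SPD with GV gave 4 in Ecto cells. The cause of these moves was not tested. Precision is limited by 3 libraries a group and, for SPARC, COL5A1, VTN and ITGB3, by low counts.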
